A study of Solanum lycopersicum with 9 samples.

Results

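The regions described here are the H3K27me1 peaks of *ddm1* leaves that overlapped no H3K27me1 peak called in wild type (WT) and carried no H3K9me2 peak in the mutant. They were selected on 3 peak lists. A *ddm1* H3K27me1 peak on one of the 12 chromosomes was taken when it shared no bp with a WT H3K27me1 peak and no bp with a *ddm1* H3K9me2 peak. Of 9247 *ddm1* H3K27me1 peaks, 7370 met this rule (79.7%). They are called H3K9me2-free new peaks below. Of the remaining *ddm1* peaks, 850 were new but overlapped *ddm1* H3K9me2 (H3K9me2-bearing new peaks), and 1027 overlapped a WT H3K27me1 peak (shared peaks). The WT list held 6044 H3K27me1 peaks, of which 5018 (83.0%) were in turn not called in *ddm1*.

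The study profiled the fourth leaves of 1-month-old tomato plants (*Solanum lycopersicum*, cultivar M82) by chromatin immunoprecipitation and sequencing of 4 histone H3 marks. The mutant, *ddm1*, is the *Slddm1a/Slddm1b* double mutant, which is mutated in both tomato copies of DDM1, and it was compared with WT M82 plants raised in the same chamber conditions. There were 9 peak lists, namely H3K27me1, H3K9me2, H3K9ac and H3K27me3 from each genotype, with 2 lists for *ddm1* H3K27me3 and 1 for every other group. Coordinates are those of the M82 V1.0 assembly.

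DDM1 is a nucleosome remodeller that gives DNA methyltransferases access to heterochromatin. H3K27me1 and H3K9me2 are marks of constitutive heterochromatin in plants and both are found over transposable elements. In Arabidopsis H3K27me1 is deposited by ATXR5 and ATXR6 and H3K9me2 by the KYP family. H3K27me3 is the Polycomb mark of silenced genes, and H3K9ac marks nucleosomes at the start of active genes. In these lists the pair was seldom called at one place, as *ddm1* H3K9me2 overlapped 1018 of 9247 of *ddm1* H3K27me1 peaks and WT H3K9me2 overlapped 922 of 6044 of WT H3K27me1 peaks.

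The list labelled replicate 2 of *ddm1* H3K27me3 was deposited under a name that gives WT, and it covered 15.97% of the 802 Mb of chromosome length with peaks of up to 185363 bp, against 2.94% and up to 5080 bp in replicate 1. It was used as labelled, and H3K27me3 shares are given for each replicate, beside any value that joins both. With 1 list per group for the other marks no difference between genotypes has a replicate check. The 95% intervals below (Wilson for a share, Newcombe for a difference between shares) cover counting error among peaks only, and peaks of 1 list are not replicates. As the rule used the WT H3K27me1 list, values of WT H3K27me1 peaks are set beside those of the new peaks as a description. A list of another mark shares its genotype with only 1 of these 2 classes, and the part of this in their differences was not tested.

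The H3K9me2-free new peaks were short and weak. Their length ranged between 147 and 837 bp with a median of 191 bp, and 91.0% were at most 300 bp long. The value of 147 bp was both the minimum and the 5th percentile in every class of H3K27me1 peaks, WT peaks included. Only 38 exceeded 500 bp. Their fold enrichment over the local background of the peak caller had a median of 2.79, with 1.94 as the lowest and 5.25 as the highest value. The reads stacked at the summit, recovered from the fold and the p-value of each peak, had a median of 25 (17 to 51). The lowest background against which they were called was 6.81 reads, and it was 6.98 reads in the WT H3K27me1 list, a level that scales with the reads used. H3K9me2-bearing new peaks had a median fold of 2.93 and a median length of 208.5 bp, shared peaks 2.95 and 225 bp, and WT peaks 2.82 and 190 bp. When the *ddm1* list was held to the size of the WT list by rank of q-value, 4655 regions met the rule. The largest q-value among the H3K9me2-free new peaks was 0.0491.

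At the edge of the rule, 163 of the H3K9me2-free new peaks lay within 500 bp of a WT H3K27me1 peak, 35 of them within 100 bp and the nearest at 1 bp, while the smallest overlap that made a peak shared was 3 bp and 48 shared peaks overlapped by at most 50 bp. Likewise 242 lay within 500 bp of a *ddm1* H3K9me2 peak, 43 of them within 100 bp and the nearest at 2 bp, while 28 H3K9me2-bearing new peaks shared at most 50 bp with H3K9me2. These values describe the choice of regions and are no result.

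The individual regions show what such a peak looked like. The strongest was chr8:56477652-56477964 (313 bp), with 5.25-fold enrichment and 40 reads at the summit over a background of 6.81. It overlapped no peak of another mark in either genotype, and the nearest H3K9ac peak was 4.18 kb away in both genotypes. The next was chr8:65575036-65575437 (402 bp), with 4.74-fold and 36 reads, 994 kb from any WT H3K27me1 peak and 2.46 kb from a WT H3K27me3 peak. Another 4 regions tied at 4.61-fold with 35 reads each, on chromosomes 9, 11 (with 2 regions) and 12, and of these chr11:53602132-53602375 lay wholly inside a WT H3K27me3 peak and 85.9 kb and 171 kb from the nearest *ddm1* H3K27me3 peak of replicates 1 and 2. The longest region was chr7:57703305-57704141 (837 bp, 3.71-fold). Of its length, 497 bp lay in a WT H3K27me3 peak, and the nearest *ddm1* H3K27me3 peaks were 39.5 kb and 61.8 kb away. The other long ones, chr10:64958427-64959262 (836 bp) and chr10:5059866-5060624 (759 bp), overlapped no other peak and had 3.33- and 3.26-fold enrichment. All 3 of the longest lay 48.8 kb or more from any WT H3K27me1 peak.

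Most H3K9me2-free new peaks, like most *ddm1* H3K27me1 peaks, overlapped no peak of another mark. In *ddm1*, 6850 of 7370 (92.9%) overlapped neither H3K9ac nor H3K27me3 of either replicate, against 92.1% of all *ddm1* H3K27me1 peaks. In WT 6402 (86.9%, 95% interval 86.1 to 87.6%) overlapped no H3K9ac, H3K27me3 or H3K9me2 peak, against 84.1% of all. Over these lists of both genotypes, 5984 (81.2%, 80.3 to 82.1%) were at no peak, against 78.1% of all. *ddm1* H3K9me2 was left out of these counts because the rule had used it.

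WT H3K9me2 was the mark found most often at these places. A WT H3K9me2 peak overlapped 725 of the H3K9me2-free new peaks (9.84%, 9.18 to 10.5%), against 13% of all *ddm1* H3K27me1 peaks. The overlap was local. WT H3K9me2 covered 8.93% of the summits, 3.81% of positions 1 kb away and 1.69% of positions 5 to 10 kb away, and it covered 1.36% of the chromosome length, so that summits were inside it 6.55 times as often as its length would give. H3K9me2-bearing new peaks were at WT H3K9me2 in 27.4%, a difference of -17.6 percentage points (-20.7 to -14.6) that had the same sign on 12 of 12 chromosomes. Shared peaks were at it in 24.1% and WT H3K27me1 peaks in 15.3%. As the rule left out regions with H3K9me2 in the mutant, and 21.5% of *ddm1* H3K9me2 peaks overlap a WT one, part of the lower share follows from the choice. With a q-value of at most 0.01 in every list the share of H3K9me2-free new peaks at WT H3K9me2 was 5.87%.

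Seen from the WT H3K9me2 list, 679 of its 9767 peaks held an H3K9me2-free new peak, and 609 of these 679 (89.7%, 87.2 to 91.8%) had no H3K9me2 peak in *ddm1*, against 83.8% (83.1 to 84.6%) of the other WT H3K9me2 peaks. The direction of that difference is also favoured by the rule. The regions with most WT H3K9me2 were chr2:11709734-11710479, covered over all its 746 bp, chr1:78192585-78193220, covered over 606 of 636 bp, and chr6:28872142-28872633, covered over all 492 bp. Their folds were 3.41, 3.33 and 2.52. The first lay 838 kb from the nearest WT H3K9ac peak and the third 3.41 kb. WT H3K9me2 was thus called at such peaks both far from and near acetylated chromatin. Over the 725 regions the median distance to WT H3K9ac was 40.5 kb, and 10.5% were within 5 kb of it.

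**Figure D1:**
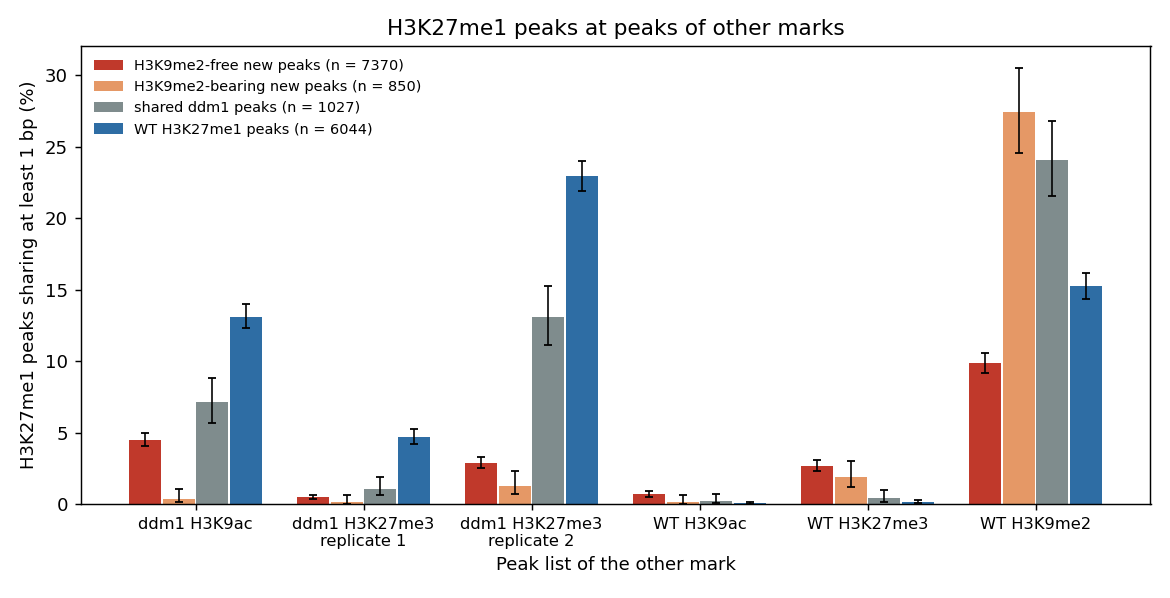
Share of H3K27me1 peaks that share at least 1 bp with a peak of another mark (y axis, %), for each list on the x axis; bars are the 4 classes of H3K27me1 peaks and error bars are 95% Wilson intervals. H3K9me2-free new peaks (leftmost bar of each set) were at *ddm1* H3K9ac in 4.49% and at WT H3K9me2 in 9.84%, against 13.1% and 15.3% of WT H3K27me1 peaks.

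*ddm1* H3K9ac overlapped 331 of the H3K9me2-free new peaks (4.49%, 4.04 to 4.99%), close to the 4.4% of all *ddm1* H3K27me1 peaks. The share was 7.11% of shared peaks and 13.1% of WT H3K27me1 peaks. H3K9me2-free new peaks minus WT peaks gave -8.61 percentage points (-9.60 to -7.65), a negative difference on 12 of 12 chromosomes. This H3K9ac list is of the genotype of the new peaks and not of the WT peaks. At H3K9ac of their own genotype WT H3K27me1 peaks were in 0.0662%. Among H3K9me2-bearing new peaks only 0.353% were at *ddm1* H3K9ac, and the difference was 4.14 percentage points (3.32 to 4.69), higher on 12 of 12 chromosomes. *ddm1* H3K9me2 peaks as a whole overlapped *ddm1* H3K9ac in 0.693%, so the second difference follows in part from the rule.

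Around the summits H3K9ac of *ddm1* had a narrow point inside a trough. It covered 3.60% of summits, 1.61% of positions 1 kb away and 3.69% of positions 5 to 10 kb away. Where one of the 331 met an H3K9ac peak, the 2 summits were a median of 107 bp apart (quartiles 49 and 194.5 bp), the H3K9ac peak had a median length of 387 bp and a median fold of 3.12, and it covered a median of 92.7% of the H3K27me1 peak. The whole *ddm1* H3K9ac list had a median length of 418 bp and a median fold of 3.24, and those of its peaks outside WT H3K9ac had 306 bp and 2.91.

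Of the 331 regions with *ddm1* H3K9ac, 30 were also at WT H3K9ac (9.06%), 41 at WT H3K9me2 (12.4%) and 3 at WT H3K27me3. Acetylation in *ddm1* was found at 41 of the 725 regions with WT H3K9me2 (5.66%, 4.196 to 7.58%), against 290 of the 6645 others (4.36%, 3.90 to 4.88%), and these intervals overlap. The region with most *ddm1* H3K9ac, chr8:66120698-66121233, was covered over all 536 bp by H3K9ac in both genotypes, by *ddm1* H3K27me3 of replicate 1 and by WT H3K27me3, with 3.25-fold H3K27me1 enrichment. The next, chr7:48593163-48593565 (403 bp) and chr8:35014420-35014817 (398 bp), were also wholly covered in *ddm1*, and lay 128 kb and 26.3 kb from the nearest WT H3K9ac peak.

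*ddm1* H3K27me3 was scarce at the H3K9me2-free new peaks in both replicates. In replicate 1 it overlapped 35 of them (0.475%, 0.342 to 0.660%), against 0.508% of all *ddm1* H3K27me1 peaks. In replicate 2 it overlapped 213 (2.89%, 2.53 to 3.30%), against 3.87% of all. The mean of the 2 replicates was 1.68 ± 1.71% (SD, n = 2), and the replicates differed by more than their mean. Summits lay inside H3K27me3 at 0.138 times its share of the length in replicate 1 and at 0.155 times in replicate 2, so that the low occupancy was seen in both. A trough of several kb surrounded the summits, with 0.407% covered at the summit and 2.49% at 5 to 10 kb in replicate 1, and 2.47% and 7.44% in replicate 2.

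Both replicates overlapped 20 regions (0.271%), against 0.324% of all *ddm1* H3K27me1 peaks, and 19 of the 20 were not at WT H3K27me3. At least 1 of the replicates overlapped 228 (3.09%), against 4.06% of all. The 3 with most H3K27me3 in both were chr3:43129379-43129750, covered over all 372 bp in each replicate and also by WT H3K9me2, chr8:52977235-52977621, covered over 311 and 225 bp and also by WT H3K9me2 over all 387 bp, and chr1:31363986-31364171, covered over all 186 bp. The first and last lay 198 kb and 233 kb from the nearest WT H3K9ac peak, the second 2.49 kb. Against H3K9me2-bearing new peaks the difference in replicate 1 was 0.357 percentage points (-0.204 to 0.566), an interval that includes 0, and in replicate 2 it was 1.60 (0.526 to 2.297). With a q-value of at most 0.01 in every list the difference changed sign in both replicates, to -0.124 percentage points in replicate 1 and -0.147 in replicate 2 (mean -0.135). Against shared peaks, of which 13.05% were at H3K27me3 of replicate 2, the difference was -10.2 percentage points (-12.4 to -8.19), and for WT H3K27me1 peaks, 22.9% of which were, it was -20.04 (-21.2 to -18.9). In replicate 1 the shares of shared and of WT peaks were 1.07% and 4.72%. These lists are not of the genotype of the WT peaks, and at WT H3K27me3 WT H3K27me1 peaks were in 0.149%.

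**Figure D2:**
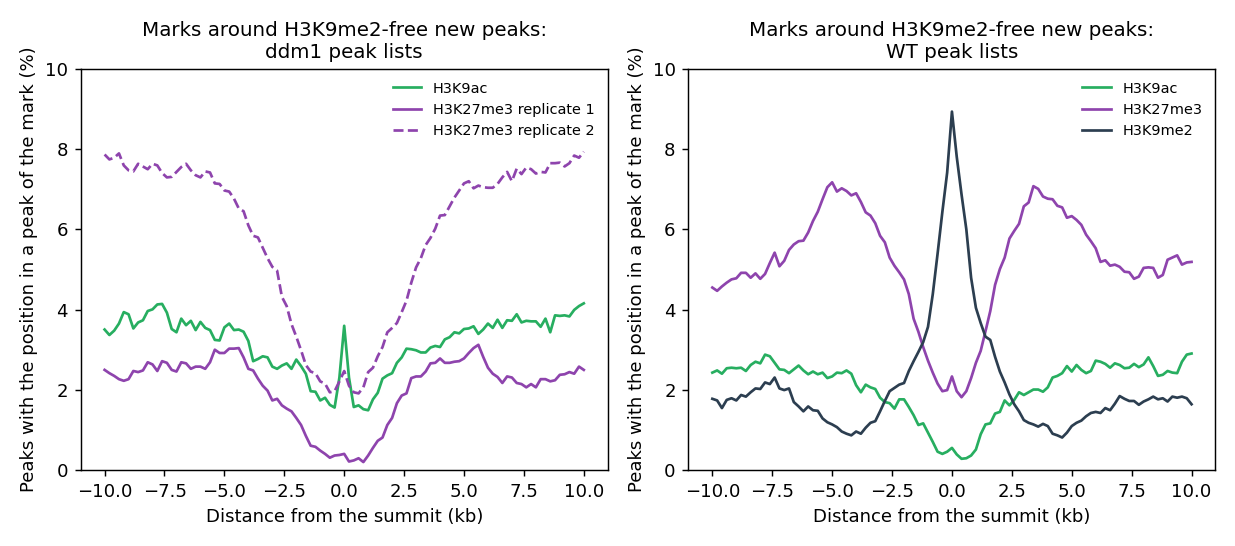
Percent of the H3K9me2-free new peaks (y axis) whose position at a given distance from the summit (x axis, kb) lies in a peak of another mark, with *ddm1* lists on the left and WT lists on the right. WT H3K9me2 peaks at the summit (8.93%), *ddm1* H3K9ac has a narrow point of 3.60% inside a trough, and H3K27me3 of both *ddm1* replicates is lowest near the summit.

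WT H3K27me3 was less frequent at the summits of the new peaks than some kb away. It overlapped 197 of the H3K9me2-free new peaks (2.67%, 2.33 to 3.07%), against 2.35% of all *ddm1* H3K27me1 peaks and 0.149% of WT H3K27me1 peaks. The difference to WT was 2.52 percentage points (2.15 to 2.92), with the same sign on 12 of 12 chromosomes. This list is of the genotype of the WT peaks and not of the new peaks. WT H3K27me3 covered 2.33% of summits, 0.437 times its share of the length, and 2.70% of positions 1 kb away. At 5 to 10 kb it covered 5.33% of positions, about the 5.34% of the length that it covered, with the highest values of the profile on each side, 7.17% and 7.07%, at 5 and 3.4 kb.

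The 197 regions that overlapped WT H3K27me3, 172 of them with the summit inside it, lay mostly away from the chromosome centres. Only 14.2% were in the central 50% of a chromosome, against 54.3% of all H3K9me2-free new peaks, their median distance to a WT H3K9ac peak was 4.02 kb, and 57.9% were within 5 kb of one. They were somewhat stronger, with a median fold of 3.03, at a median background of 6.81 reads. Of the 197, H3K27me3 was called in *ddm1* at 5 (2.54%, 1.09 to 5.80%) in replicate 1 and at 3 (1.52%, 0.519 to 4.38%) in replicate 2. The shares of all H3K9me2-free new peaks were 0.475% and 2.89%, and those of all *ddm1* H3K27me1 peaks 0.508% and 3.87%. Of the 193 that were at no WT H3K9ac, 187 (96.9%) had neither H3K9ac nor H3K27me3 in the mutant. That held for 92.9% of all H3K9me2-free new peaks and 92.1% of all *ddm1* H3K27me1 peaks.

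The WT H3K27me3 peaks that held an H3K9me2-free new peak were found again in *ddm1* less often than others of the list. There were 191 of them among 35712, and 23 (12.04%, 8.16 to 17.4%) overlapped a *ddm1* H3K27me3 peak of replicate 1, against 32.7% (32.3 to 33.2%) of the other WT H3K27me3 peaks. In replicate 2 the count was 11 (5.76%, 3.25 to 10.0%), against 38.7% (38.2 to 39.2%). They were also longer, with a median of 1331 bp against 907 bp. H3K27me3 had no part in the rule, and the intervals, which cover counting error only, are apart in both replicates. All *ddm1* H3K27me1 peaks, however, were seldom at *ddm1* H3K27me3, in 0.508% in replicate 1 and 3.87% in replicate 2. WT H3K27me3 peaks that held other *ddm1* H3K27me1 peaks were not set beside these, so the part of holding any such peak was not tested.

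Few H3K9me2-free new peaks were at acetylated chromatin of WT. A WT H3K9ac peak overlapped 50 (0.678%, 0.515 to 0.893%), against 0.573% of all *ddm1* H3K27me1 peaks and 0.0662% of WT H3K27me1 peaks. Of these 50, 30 (60%, 46.2 to 72.4%) were acetylated in *ddm1* as well.

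Distance to WT H3K9ac, used here as a landmark of active genes, was taken for each of the H3K9me2-free new peaks. The median was 27.8 kb (quartiles 7.02 and 118 kb), near the 29.6 kb of positions taken every 1000 bp along the chromosomes. It was 9.11 kb for H3K9me2-bearing new peaks, 35.9 kb for shared peaks and 49.5 kb for WT H3K27me1 peaks. Relative to chromosome length, summits were depleted inside WT H3K9ac peaks (0.142 times, 0.105 to 0.193) and up to 1 kb from them (0.221 times), still low at 1 to 2 kb (0.743 times, 0.663 to 0.833), and most frequent at 5 to 10 kb (1.52 times, 1.43 to 1.61). At 10 to 20 kb the ratio was 1.37, and beyond 50 kb it stayed between 0.919 and 1.01. This pattern was not particular to them. All *ddm1* H3K27me1 peaks had ratios of 1.55 at 5 to 10 kb and 1.41 at 10 to 20 kb. Shared peaks had 1.49 and 1.38 there. Of all *ddm1* H3K27me1 peaks 19.6% lay within 5 kb of WT H3K9ac. Within 5 kb of WT H3K9ac lay 18.7% of the H3K9me2-free new peaks, against 34.8% of H3K9me2-bearing ones, a difference of -16.1 percentage points (-19.5 to -12.9) that was negative on 12 of 12 chromosomes, and against 10.5% of WT H3K27me1 peaks, a difference of 8.16 (6.98 to 9.34) that was positive on 12 of 12. By median distance and by the share within 5 kb, new peaks without H3K9me2 thus stood between the H3K9me2-bearing new peaks and the WT peaks. The H3K9me2-bearing ones crowded at 2 to 5 kb from acetylated chromatin (2.73 times). Inside WT H3K9ac and up to 1 kb from it the order was another. H3K9me2-bearing new peaks had ratios of 0 and 0.177 there and WT peaks 0.00846 and 0.0295, both below those of the H3K9me2-free new peaks.

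New peaks were farther than such positions from *ddm1* H3K9ac and nearer to WT H3K9me2 and WT H3K27me1. The median distance of the H3K9me2-free new peaks to *ddm1* H3K9ac was 8.14 kb, against 4.99 kb for positions taken every 1000 bp. To WT H3K9me2 it was 21.3 kb against 32.2 kb, and to WT H3K27me1, which the rule used, 40.7 kb against 58.1 kb. All *ddm1* H3K27me1 peaks had medians of 8.10, 19.3 and 31.6 kb to these lists, so the pattern was not particular to the H3K9me2-free new peaks. Of 5018 WT H3K27me1 peaks that were not called in *ddm1*, 651 (12.97%) had an H3K9me2-free new peak within 5 kb. The same share was not taken for the other WT H3K27me1 peaks or for even positions. The count thus has no reference value and does not show replacement of lost peaks nearby.

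The farthest regions from WT H3K9ac lay together on chromosome 11. They were chr11:19591150-19591306, chr11:19652148-19652380 and chr11:19500852-19501070, at 1504, 1480 and 1413 kb from the nearest WT H3K9ac peak, with folds of 3.00, 2.31 and 2.82. The nearest H3K9ac or H3K27me3 peak of either genotype was 1407 kb or farther from each of them, whereas *ddm1* H3K9me2 peaks were 0.404, 14.1 and 4.37 kb away.

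**Figure D3:**
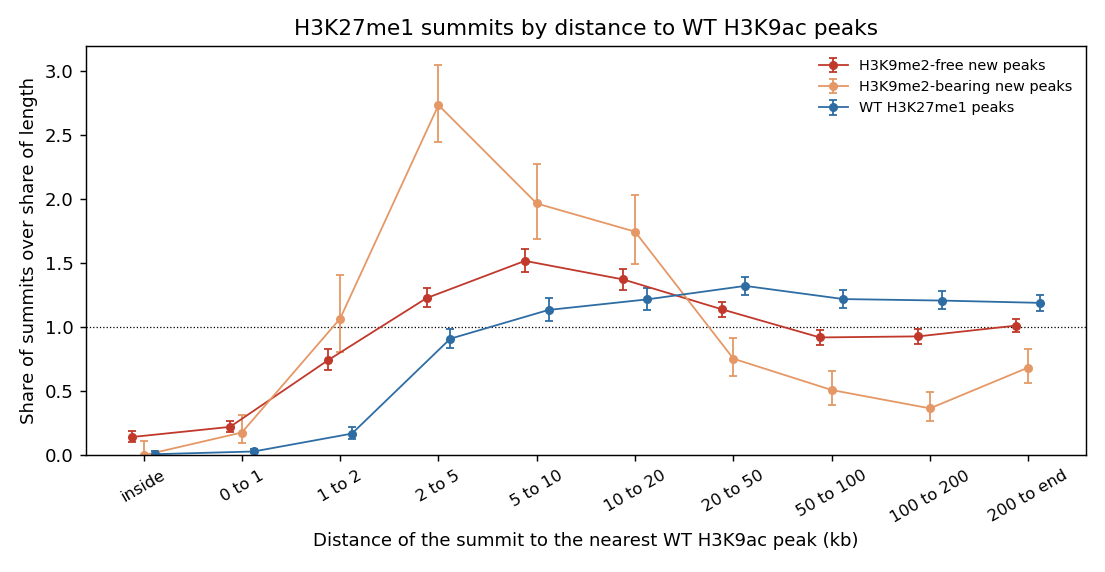
Share of summits in each class of distance to the nearest WT H3K9ac peak (x axis, kb) divided by the share of chromosome length there (y axis); bars are 95% Wilson intervals of the share and the dotted line marks 1. H3K9me2-free new peaks reach 1.52 at 5 to 10 kb, H3K9me2-bearing new peaks 2.73 at 2 to 5 kb, and both are low inside and next to WT H3K9ac. All *ddm1* H3K27me1 peaks, not drawn, reach 1.55 at 5 to 10 kb.

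The strength of the H3K9me2-free new peaks went with their place. Among the 25% of highest fold (3.07 to 5.25), 26.4% (24.4 to 28.4%) were within 5 kb of WT H3K9ac, against 8.63% (7.43 to 10.0%) among the 25% of lowest fold (1.94 to 2.55). The central 50% of the chromosomes held 45.9% of the strongest and 65.8% of the weakest. WT H3K27me3 overlapped 4.77% of the strongest and 0.543% of the weakest, and WT H3K9me2 overlapped 7.05% of the strongest and 11.8% of the weakest. The median background of the peak caller was 6.81 reads among the strongest and 10.6 reads among the weakest, and since fold is taken over that background, its part in this order was not tested. The median length was 193 bp among the strongest and 191 bp among the weakest.

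Along the chromosomes the H3K9me2-free new peaks were spread widely. There were 9.19 per Mb, against 7.54 WT H3K27me1 peaks per Mb. The *ddm1* list was the longer one, with 9247 peaks against 6044. With the *ddm1* list held to the WT size there were 5.80 per Mb, and on 0 of 12 chromosomes did they outnumber WT peaks. That setting compares part of a list with a whole list of equal size, so a lower total was given in advance. It cannot show what the order in the lists as deposited rests on. Chromosome 12 had most, with 10.6 per Mb (exact Poisson interval 9.82 to 11.4), and chromosome 1 fewest, with 7.21 (6.67 to 7.77). Chromosome 1 was also the only one with fewer of them than WT H3K27me1 peaks (669 against 751, a ratio of 0.891), while on the other 11 the ratio was above 1 and at most 1.38, on chromosome 7. The share of *ddm1* H3K27me1 peaks that met the rule varied little, between 76.3% on chromosome 8 and 83.7% on chromosome 7. WT H3K9me2 overlapped between 7.69% (chromosome 8) and 11.9% (chromosome 2) of them, and *ddm1* H3K9ac between 2.82% (chromosome 12) and 6.10% (chromosome 10).

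**Figure D4:**
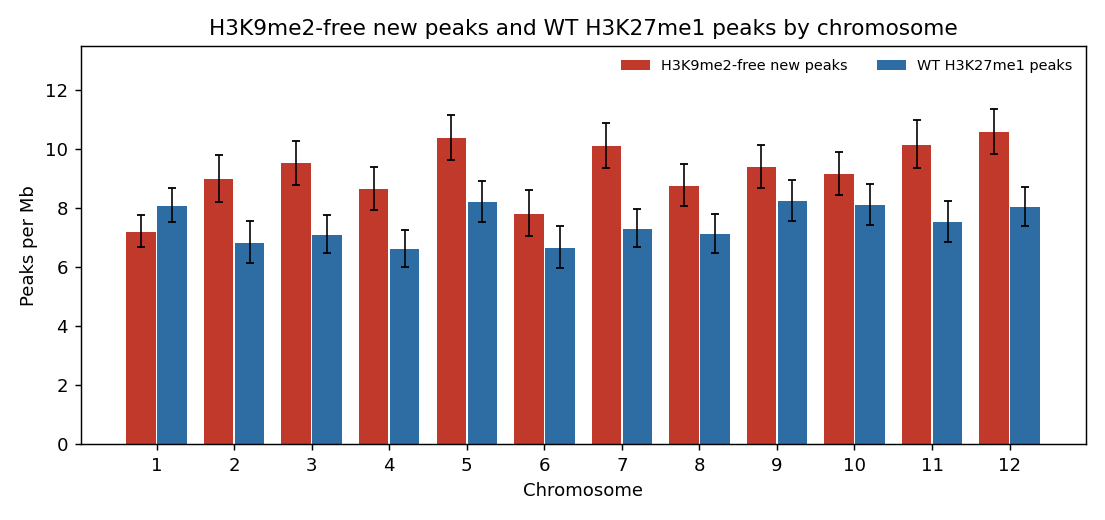
Peaks per Mb (y axis) on each of the 12 chromosomes (x axis) for H3K9me2-free new peaks and WT H3K27me1 peaks; error bars are exact 95% Poisson intervals. In the lists as deposited new peaks exceed WT peaks on all chromosomes but chromosome 1, where they number 669 and 751. With lists of equal size they do so on 0 of 12. The new peaks are then part of a list of the WT size, so their lower total is given in advance.

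By relative position, 54.3% (53.2 to 55.4%) were in the central 50% of a chromosome, near the 53.2% of all *ddm1* H3K27me1 peaks. Shared peaks were there in 55.3%, a difference of -1.01 percentage points (-4.23 to 2.25), an interval that includes 0. Of H3K9me2-bearing new peaks 41.3% were there, a difference of 13.01 percentage points (9.48 to 16.5) with this sign on 11 of 12 chromosomes. Of WT H3K27me1 peaks 60.8% were (-6.52, -8.19 to -4.84). In 10 bins of equal length along a chromosome, the inner bins held between 9.65% and 11.98% of them each, the first 9.08% and the last 5.85%. WT H3K27me1 peaks were scarcer at both ends, with 5.91% and 2.22%. Within 5 Mb of a chromosome end lay 10.1% of the H3K9me2-free new peaks, 13.8% of the H3K9me2-bearing ones and 4.70% of WT peaks, on 15.0% of the length. Of all *ddm1* H3K27me1 peaks 10.3% lay there. Windows of 1 Mb were ranked by their WT H3K9ac peaks and cut into 4 sets of 199. The set with 0 to 5 acetylation peaks held a mean of 9.94 H3K9me2-free new peaks against 8.91 WT H3K27me1 peaks, the next 9.22 against 10.2, the set with 15 to 72 acetylation peaks 11.2 against 9.07, and the set with 73 to 325 held 6.53 against 2.02.

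**Figure D5:**
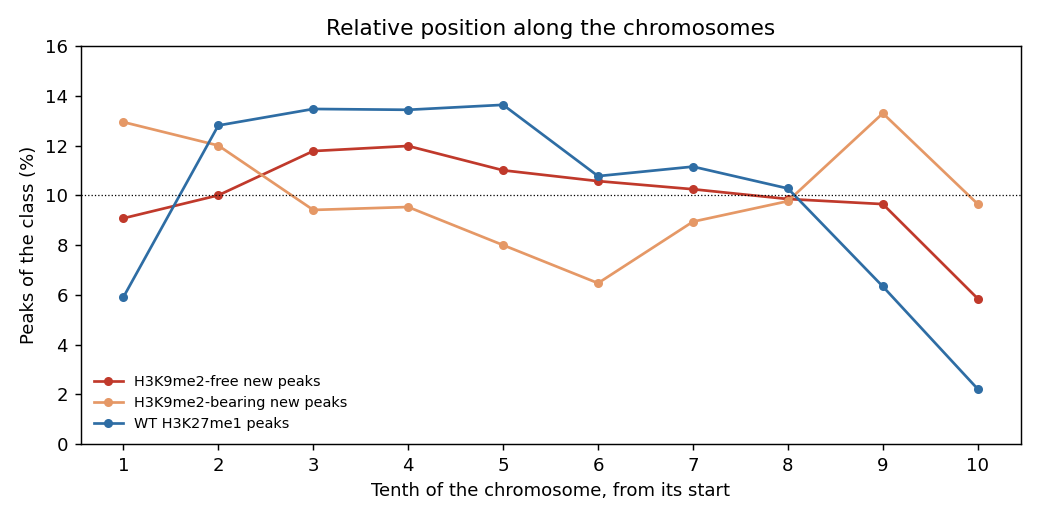
Percent of each class of H3K27me1 peaks (y axis) in each of 10 equal bins of the chromosome from its start (x axis), over all 12 chromosomes; the dotted line marks an even spread of 10%. H3K9me2-free new peaks are nearly even, with 11.98% in bin 4 and 5.85% in the last, while WT peaks fall to 2.22% in the last. All *ddm1* H3K27me1 peaks, not drawn, have 12.1% in bin 4 and 6.13% in the last.

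Neighbouring H3K9me2-free new peaks were a median of 57.7 kb apart (mean 108 kb, quartiles 19.1 and 138 kb), with 105 bp as the smallest and 2.10 Mb as the largest gap. Gaps of at most 10 kb made up 17.1% of the total. Linking peaks up to 10 kb apart put 2224 of them (30.2%, 29.1 to 31.2%) in 967 clusters, of which 763 held 2 peaks, 144 held 3, 44 held 4 and 16 held 5 or more. With links of 5 kb the share in clusters was 18.98%. Links joined H3K9me2-free new peaks only, so one called lone below can still have another *ddm1* H3K27me1 peak within 10 kb. Over all *ddm1* H3K27me1 peaks the median gap was 43.2 kb, and 38.2% were in clusters at links of 10 kb. WT H3K27me1 peaks, at lower density, were in clusters in 27.5%. With the *ddm1* list held to the WT size the share of H3K9me2-free new peaks in clusters was 23.2%, below that of WT. Their density was then the lower one (5.80 against 7.54 per Mb), and its part in this share was not tested. Clustered peaks differed little from lone ones in median fold (2.82 against 2.76) and length (195 against 190 bp), were at WT H3K9me2 in 10.7% (9.53 to 12.1%) against 9.44% (8.68 to 10.3%), and were within 10 kb of a WT H3K27me1 peak more often, in 25.05% (23.3 to 26.9%) against 18.9% (17.8 to 19.98%).

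The largest clusters held 7 peaks, and there were 3 of them. The tightest, chr2:24092881-24117692, had folds between 3.20 and 4.36, none of its peaks was at another mark, and its nearest WT H3K9ac peak was 109 kb away. WT H3K27me1 was called in its midst, 0.108 kb from the nearest new peak. In chr7:60595751-60622612 folds were 2.69 to 3.20 and 4 of 7 peaks were at WT H3K9me2. In chr7:60710453-60741964 folds were 2.42 to 3.61 and none was at WT H3K9me2. Both chromosome 7 clusters fell in a 1 Mb window with 30 H3K9me2-free new peaks, 11 WT H3K27me1 peaks and 98 WT H3K9ac peaks. Windows of 1 Mb held a median of 8 such peaks and between 0 and 37, and 5 of 796 full windows held none. The fullest, with 37, spanned chr7:42000001-43000000 and had 17 WT H3K27me1 peaks and 2 WT H3K9ac peaks. Of the 5 fullest windows, 4 had at most 2 WT H3K9ac peaks.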

How the data were processed

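All 9 ChIP-seq peak lists were used, grouped by genotype and antibody as labelled. The authors trimmed reads (Trimmomatic 0.38), aligned them to M82 V1.0 with Bowtie2 (version 2.3.5 in their processing notes, which also name SAMtools 1.9) and called peaks with MACS3. Whether replicates were pooled, and which control was used, is not given in the sources used here. The deposited values per peak are a fold enrichment (a ratio to local background), −log10 p- and q-values, and a score derived from q; the authors' H3K27me1 and H3K9ac lists give summits. No read totals were used, so depth was read from summit reads solved from the fold and the p-value.

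Overlap meant at least 1 bp. Shares were set beside covered chromosome length, the highest peak end standing for chromosome length. No p-value was computed, as groups have 1 list. Regions named are the 5 highest in fold (with ties), and the 3 longest, 3 largest clusters, 3 with most *ddm1* H3K9ac, *ddm1* H3K27me3 or WT H3K9me2, 3 farthest from WT H3K9ac, and the chromosomes of highest and lowest density. The regions and rules were chosen with earlier results of these data known. Scripts (Python 3.11.15, numpy 2.4.6, pandas 2.3.3, scipy 1.17.1) were tested on simulated data. No genome sequence or annotation of this build was used. Alternatives tried were a q-value of at most 0.01, lists of equal size, a gap of 500 bp, 1 minimum H3K9me2 length, 50% cover, other links between clusters, H3K9ac-poor windows and single replicates.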

Additional observations from a re-analysis of the deposited data

How the results depend on the processing

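Of 61 values recomputed under alternatives, 42 stayed within their interval (or SD), and 3 counts of regions stayed within 1.5 times. For *ddm1* H3K27me3 that range was the mean ± SD of 2 replicates, for the share -0.0253 to 3.39%. A single replicate falls inside such a range by arithmetic, so the settings with single replicates are no check there. With a q-value of at most 0.01 in every list, *ddm1* H3K9ac was at 3.78% of H3K9me2-free new peaks (3.15 percentage points above H3K9me2-bearing ones), WT H3K9me2 at 5.87%, the median distance to WT H3K9ac was 25.1 kb and the difference in the central 50% was 17.0 points. The mean difference at *ddm1* H3K27me3 from H3K9me2-bearing new peaks reversed there, to -0.135 points (-0.124 in replicate 1 and -0.147 in replicate 2). With the *ddm1* H3K27me1 list held to the WT size, 4655 regions met the rule, 3.97% were at *ddm1* H3K9ac and 23.2% in clusters. Requiring over 500 bp from both excluded lists gave 8.87% at WT H3K9me2 and 28.9% in clusters, 1 minimum H3K9me2 length (700 bp) gave a difference of -21.4 points at WT H3K9me2, and 50% cover gave 3.69% at *ddm1* H3K9ac and 9.16% at WT H3K9me2. Clusters held 18.98% at links of 5 kb and 43.2% at 20 kb. With single replicates the share at *ddm1* H3K27me3 was 0.475 to 2.89% and its difference 0.357 to 1.60 points. Without peaks over 10 kb in replicate 2, an alternative chosen after seeing the data, the means of both replicates were 1.51% and 0.866 points (2.55% and 1.37 points in replicate 2). No paired analysis was possible because only *ddm1* H3K27me3 has numbered replicates. Weak peaks near 17 summit reads limit what absence from a list shows.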
